A study of Rattus norvegicus with 16 samples.

Results

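Inhalation of the odour (R)-(-)-linalool was examined in rats that were restrained at the same time. The 4 arrays of hypothalamus from rats that inhaled linalool during 2 h of restraint, called the stress with linalool group, were set against the 4 arrays from rats restrained for 2 h without the odour, called the stress group. These 8 arrays, picked by their titles, are part of 16 in the study. The other 8 came from 4 rats that inhaled linalool for 2 h without restraint (linalool) and 4 rats that had neither (control). All animals were male Wistar rats, 7 to 8 weeks old, and each array held the RNA of 1 rat. No dose, odour concentration or device is named in the labels. The labels name the hypothalamus as a whole, so in this bulk tissue fewer cells of a type and less RNA per cell cannot be told apart.

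Linalool is a monoterpene alcohol of floral scent that occurs in lavender and other plant oils, and (R)-(-) is one of its mirror-image forms. The hypothalamus holds the neurons that start the hormonal answer to stress, among them corticotropin-releasing hormone neurons that drive the pituitary and adrenal glands. Its neurons are held in check to a large extent by gamma-aminobutyric acid (GABA), the main inhibitory transmitter, which is made by 2 glutamate decarboxylases. Restraint is a standard stressor that raises glucocorticoids within the time used here. The comparison asks what the odour changed in rats that were restrained at the same time.

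Values are log2(normalized signal + 16), a relative level that may be compared between rats for 1 probe set but not between probe sets. A probe set is a group of short probes aimed at 1 transcript region. Of 31042 probe sets, 18625 passed the filter on dim signals, and they carried 10309 named genes. A probe set was called where limma's adjusted p was under 0.05. The median deposited signal of an array lay between 110 and 118 in the stress with linalool group and between 87.2 and 127 in the stress group. The BioC hybridization control was 898 on the array of stress with linalool rat 2 and 862 and 793 on those of linalool rats 2 and 4, against 208 to 255 on the other 13 arrays. Counts of called probe sets are therefore also given with these 3 arrays as a block and without them. The log2 ratio of the 3' to the 5' beta-actin control, a sign of RNA integrity, was 1.34 to 1.80 in stress with linalool rats and 1.51 to 1.81 in stress rats, while control rat 1 stood highest of all 16 at 2.30.

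Among restrained rats, most of the called transcripts were higher in those that also inhaled linalool. They included Bmpr2, a receptor for bone morphogenetic proteins, the GABA genes Gad2 and Gabra2, and the myosin, kinesin and complexin genes Myo10, Myo5a, Kif3a and Cplx2. Ddx6, which encodes an RNA helicase, and Setd5, which acts on chromatin, were higher as well. The genes that fell included Sbf2, Ganc and Tia1. No member of the lists of immediate early, heat shock, glucocorticoid-responsive or neuropeptide genes was called, although several of these showed wide differences between rats.

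In stress with linalool minus stress, 121 of 18625 probe sets were called, or 0.650% (limma, Benjamini-Hochberg adjusted p under 0.05). Of these, 111 were higher (0.596%) and 10 were lower (0.0537%). The median change was 0.73 among those called higher (0.36 to 1.37) and -0.51 among those called lower (-0.95 to -0.43). Over all kept probe sets the median change was -0.02, and 8268 of 18625 changes were positive. At an unadjusted p under 0.05 stood 2354 probe sets, or 12.6%. The values of the 4 stress with linalool rats lay above those of all 4 stress rats in 110 of the 111 probe sets called higher, against 938 of all 18625 (5.04%). They lay below in 10 of the 10 called lower, against 991 of all (5.32%). The called probe sets were chosen on these same arrays, so their separation is no separate test. With the 3 high-BioC arrays as a block, 51 probe sets were called, 47 higher and 4 lower. Without these 3 arrays, 0 were called (smallest adjusted p = 0.0603, with 1692 at an unadjusted p under 0.05). That comparison had 3 stress with linalool rats and 4 stress rats. In it all 111 changes were positive, with a median of 0.69, and all 10 were negative. Its arrays also served to choose these probe sets, so the kept signs are no separate test.

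**Figure D1:**
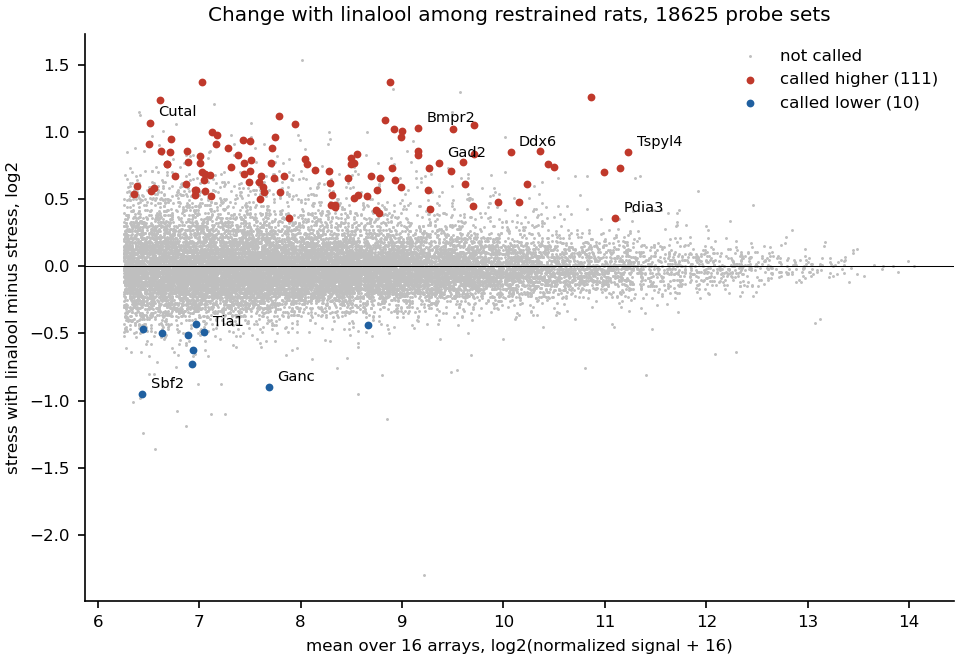
Change of each of 18625 kept probe sets between stress with linalool and stress rats (vertical axis, log2) against its mean over the 16 arrays (horizontal axis, log2(normalized signal + 16)). Called probe sets (limma adjusted p under 0.05) are red where higher (111) and blue where lower (10), and grey points were not called. Called probe sets with 1 gene symbol have means from 6.36 to 11.23. Some uncalled probe sets are brighter, such as 1 of Gnas at 13.12. Those called higher outnumber those called lower.

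Bmpr2, a type II receptor that binds bone morphogenetic proteins and activates a type I partner, had levels of 9.72, 9.61, 9.71 and 9.42 in stress with linalool rats 1 to 4. In stress rats 1 to 4 its levels were 8.90, 8.52, 8.48 and 8.43. The lowest rat of the first group was thus well above the highest of the second. The means were 9.62 ± 0.14 and 8.58 ± 0.22 (SD, n = 4 each), a change of 1.03 (SE 0.14, limma adjusted p = 0.00569), or 2.05-fold. Bmpr2 was called with the BioC block (adjusted p = 0.0132) and with each of the 16 arrays left out in turn (highest adjusted p = 0.026). In unrestrained rats its mean was 9.24 ± 0.10 with linalool and 9.21 ± 0.31 in controls. Of 28 measured genes of bone morphogenetic protein and transforming growth factor beta signalling, 1 rose and 0 fell by the probe set that represents each gene, and their median change was -0.03. The genes called over all 10309 named genes by that probe set were 36 higher (0.349%) and 5 lower (0.0485%). Acvr2b, an activin receptor of the same receptor class, was at 7.61 ± 0.09 and 7.88 ± 0.03, a change of -0.27 that did not pass (adjusted p = 0.155).

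Gad2, which encodes the smaller glutamate decarboxylase that makes GABA near synapses, had levels of 9.54, 9.98, 9.83 and 9.68 in stress with linalool rats, against 9.17, 8.93, 8.73 and 9.13 in stress rats. The groups did not overlap. The change was 0.77 (SE 0.14, adjusted p = 0.0201). Gabra2, the alpha-2 subunit of the GABA-A receptor, had 9.16, 9.88, 9.04 and 9.57 with linalool and 8.84, 8.05, 8.32 and 8.61 without. Rats 2 and 4 were the highest of the stress with linalool group, and the gap between the groups was narrower than for Gad2. The change was 0.96 (SE 0.21, adjusted p = 0.0454). Gabra2 was not called with the BioC block (adjusted p = 0.105) and was called in 3 of the 16 fits that left out 1 array, whereas Gad2 was called with the block (adjusted p = 0.0412) and in 12 of those 16 fits. Gad1, the other glutamate decarboxylase gene, had 11.71, 11.87, 11.98 and 11.82 in stress with linalool rats, against 11.91, 11.77, 11.83 and 12.01 in stress rats. Those ranges overlapped (change -0.04, SE 0.08, adjusted p = 0.906). The differences were 0.11 for the vesicular GABA transporter gene Slc32a1 (adjusted p = 0.848) and 0.16 for the GABA-B receptor gene Gabbr1 (adjusted p = 0.446). Of 18 measured genes for GABA synthesis, transport and reception, 2 rose and 0 fell, where 0.349% of all named genes rose. Of the 18 changes 7 were positive, with a median of -0.04. Among 25 measured genes of glutamate receptors and transporters 0 were called (4 at an unadjusted p under 0.05). Grin2a, an NMDA receptor subunit, lay higher in all 4 stress with linalool rats (0.63, SE 0.16, adjusted p = 0.0912).

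The promoters of Bmpr2 and Gad2, the receptor and the transmitter gene described first, are shown because both genes were higher with linalool and both have an entry in the RefSeq-derived promoter table of assembly GRCr8. Each runs from 250 bases before to 50 bases after the annotated start, 5′ to 3′ on the gene's own strand. Capitals mark matches to a GC box (GGGCGG, or CCGCCC on the other strand) or to a CCAAT box (CCAAT, or ATTGG on the other strand). Bmpr2 lies at chr9:68686566-68686865, plus strand, and Gad2 at chr17:89671468-89671767, plus strand.
Bmpr2: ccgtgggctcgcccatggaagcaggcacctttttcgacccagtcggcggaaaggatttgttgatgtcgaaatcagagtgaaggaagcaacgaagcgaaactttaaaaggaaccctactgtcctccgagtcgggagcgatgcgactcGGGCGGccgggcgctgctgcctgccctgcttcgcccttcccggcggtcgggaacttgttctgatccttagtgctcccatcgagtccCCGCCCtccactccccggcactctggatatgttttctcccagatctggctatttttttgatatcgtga
Gad2: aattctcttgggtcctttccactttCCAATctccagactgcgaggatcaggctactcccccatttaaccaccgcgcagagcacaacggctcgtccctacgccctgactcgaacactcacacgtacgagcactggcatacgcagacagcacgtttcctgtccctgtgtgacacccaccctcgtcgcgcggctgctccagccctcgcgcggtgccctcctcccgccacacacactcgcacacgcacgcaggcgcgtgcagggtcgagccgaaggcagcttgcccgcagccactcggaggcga

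Of the 36 genes called higher by their representing probe set, 27 matched the promoter table. A GC box was in 18 of the 27 promoters (66.7%), in 5528 of the 8619 promoters of kept genes (64.1%) and in 9580 of all 27457 in the table (34.9%). A CCAAT box was in 10 of the 27 (37%), 3253 of the kept genes' promoters (37.7%) and 10363 of all (37.7%). The cyclic AMP response element TGACGTCA was in 1 of the 27 (3.7%), against 3.26% of kept genes and 1.91% of all, and the AP-1 motif TGACTCA in 1 of the 27 (3.7%), against 3.25% and 4.53%. The E-box CACGTG was in 0 of the 27, against 9.66% of kept genes and 6.65% of all. Both strands were searched, and no motif contains another. Against the promoters of kept genes the GC box and CCAAT box shares were near the background.

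Cutal showed the largest rise among genes with a representing probe set called, and its 4 levels were 7.57, 7.07, 7.02 and 6.98 in stress with linalool rats, against 6.30, 6.21, 6.03 and 5.83 in stress rats. Rat 1 stood apart at the top of the first group, and the groups did not overlap. The change was 1.07 (SE 0.15, adjusted p = 0.00569). Cutal was dim, with a mean of 6.51 over the 16 arrays. Its means were 6.09 in stress rats, 6.52 in linalool rats and 6.25 in controls. Csrnp3, a nuclear protein that acts as a transcription factor, had 7.92, 8.33, 8.10 and 8.02 against 7.52, 6.93, 7.02 and 7.05, where stress rat 1 was the highest of its group and still below every rat with linalool. Its change was 0.96 (SE 0.15, adjusted p = 0.00742). Emg1, a methyltransferase of ribosome assembly, had 7.37, 7.98, 6.70 and 7.29 with linalool and 6.38, 6.28, 6.12 and 6.66 without. Its lowest value with linalool, in rat 3, nearly met the highest without, and the change was 0.98 (SE 0.21, adjusted p = 0.0473). Tspyl4, of the nucleosome assembly protein family, changed by 0.85 (adjusted p = 0.023), Vof16 by 1.01 (adjusted p = 0.00742) and C10h17orf75 by 0.79 (adjusted p = 0.00672). Cxxc4, an inhibitor of Wnt signalling, changed by 0.77 (adjusted p = 0.0328), and Tmem33, an endoplasmic reticulum membrane protein, by 0.76 (adjusted p = 0.0213). Among the 41 genes called by their representing probe set, 17 were called with the BioC block and 10 were called with each of the 16 arrays left out in turn. Bmpr2, Cutal, Vof16, Csrnp3 and C10h17orf75 were among those 10. With the BioC block Emg1 (adjusted p = 0.103), Tspyl4 (0.0504) and Cxxc4 (0.0617) were not called, and Emg1 was called in 3 of the 16 fits that left out 1 array.

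Called genes also included 3 of transport along the cytoskeleton and 1 of vesicle release. Myo10, a myosin of filopodia, had 7.76, 8.12, 7.89 and 7.80 in stress with linalool rats, against 7.38, 6.73, 6.85 and 6.91 in stress rats. All rats with linalool were above all rats without, and the change was 0.93 (SE 0.15, adjusted p = 0.0119). Myo5a, which carries organelles and vesicles along actin, changed by 0.71 (SE 0.15, adjusted p = 0.0431, but 0.0782 with the BioC block, and called in 4 of the 16 fits that left out 1 array), and Kif3a, a motor subunit of kinesin-2, by 0.62 (SE 0.11, adjusted p = 0.0165). Cplx2, a complexin that clamps and promotes the fusion of synaptic vesicles, had 8.01, 7.92, 7.62 and 7.96 in stress with linalool rats, against 7.28, 7.25, 7.04 and 7.27 in stress rats. Rat 3 was the lowest of each group, and the groups did not overlap (change 0.67, SE 0.11, adjusted p = 0.0115). Of 41 measured genes of motor proteins and the cytoskeleton 3 rose and 0 fell, where 0.349% of all named genes rose, and the list's median was -0.06. Of 40 measured genes of synaptic vesicle release 1 rose and 0 fell, again with a median of -0.06. In 5 of the 40 all stress with linalool rats lay below all stress rats, against 5.32% of all kept probe sets. One of these 5 was Napb, a SNARE disassembly factor, at -0.25 (adjusted p = 0.0908). In 1 of the 40 they all lay above. On the motor and cytoskeleton list they all lay below in 7 of the 41 and above in 5. The lists count 1 probe set per gene, whereas 5.32% is a share of probe sets. Nlgn2, the postsynaptic adhesion protein of inhibitory synapses, lay higher in every rat with linalool but did not pass (0.61, SE 0.14, adjusted p = 0.0667).

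**Figure D2:**
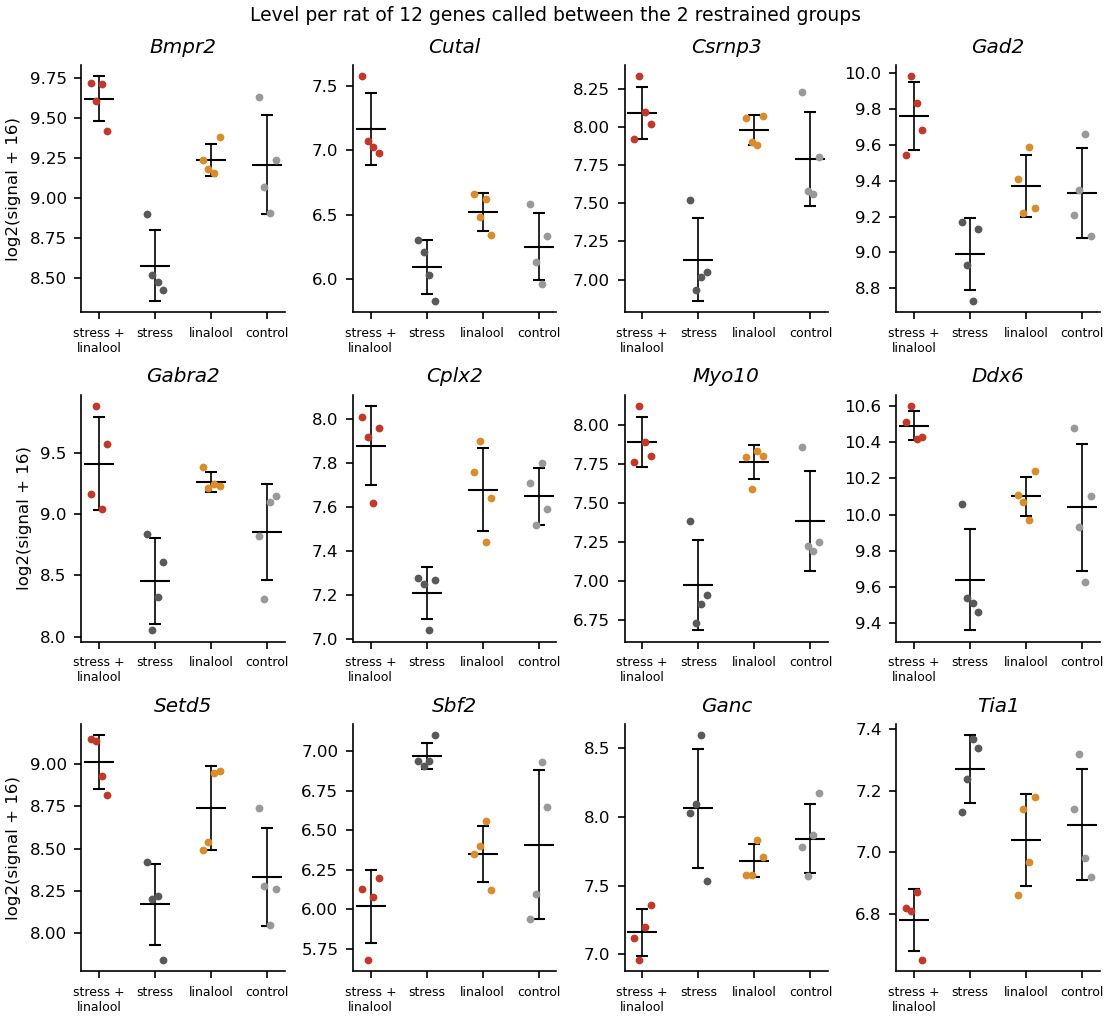
Levels of 12 called genes in each rat, on the log2(normalized signal + 16) scale, in the stress with linalool, stress, linalool and control groups. Each point is 1 rat, the wide bar is the group mean and the thin bars are the SD over 4 rats. In all 12 panels the stress with linalool points lie to one side of the stress points, above them in 9 and below them in Sbf2, Ganc and Tia1.

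Genes that act on RNA, chromatin and protein turnover were also called, with 1 or 2 per list. Over all 10309 named genes 0.349% were called higher. Ddx6, a helicase of mRNA decay and translational repression, had 10.51, 10.60, 10.42 and 10.43 in stress with linalool rats, against 10.06, 9.54, 9.51 and 9.46 in stress rats. Stress rat 1 stood apart above the other 3 of its group, and still below every rat with linalool. The change was 0.85 (SE 0.16, adjusted p = 0.0213), and Ddx6 was 1 of 42 measured genes called on the list of mRNA decay and DEAD-box helicases. Setd5, a chromatin protein with a SET domain, was at 9.01 ± 0.16 and 8.17 ± 0.24 (0.84, SE 0.16, adjusted p = 0.0221), 1 of 59 chromatin modifiers. The ubiquitin ligase gene Rnf6 (0.76, SE 0.15, adjusted p = 0.0314) and the deubiquitinase gene Usp7 (0.45, SE 0.10, adjusted p = 0.0431) rose among 52 genes of that class. Pdia3, a disulfide isomerase of the endoplasmic reticulum, rose among 25 genes of endoplasmic reticulum stress (0.36, SE 0.08, adjusted p = 0.0394). The medians of these 4 lists were -0.03, -0.03, -0.02 and 0.09. With the BioC block none of these 5 genes was called, with adjusted p = 0.0516 for Ddx6, 0.0528 for Setd5 and Rnf6, and 0.0872 for Usp7 and Pdia3. Aff4, a scaffold of the super elongation complex, Apeg3, named for a transcript antisense to the imprinted Peg3, and Cbl, a ubiquitin ligase for tyrosine kinase receptors, each had more than 1 called probe set. Their changes by the called probe set with the smallest p were 0.86, 0.81 and 0.69 (adjusted p = 0.00725, 0.00844 and 0.00846), while the brightest probe set of each gave -0.06. Further list members were called only through a probe set that was not the brightest of its gene. They were the chromatin genes Kat6b (0.76), Kdm2a (0.70), Atrx (0.67) and Smarca2 (0.44), the exonuclease gene Xrn2 (0.53), the ankyrin gene Ank2 (0.83), the translation initiation genes Eif3c (0.77) and Eif3a (0.64), Id4 (0.40), which opposes basic helix-loop-helix factors, the neuron marker Elavl2 (0.88) and the astrocyte genes Slc4a4 (0.84) and Aqp4 (0.48). The brightest probe sets of these list members ran from -0.18 for Eif3c to 0.35 for Elavl2, and none was called. With the BioC block only Kat6b and Xrn2 among them were called (adjusted p = 0.0218 for both).

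The genes that fell were fewer, and most were dim. Their mean levels over the 16 arrays were 6.44 for Sbf2, 6.63 for Slc31a2, 6.93 for Epc2, 7.05 for Tia1 and 7.69 for Ganc. With a 60th percentile filter on dim signals, only 2 of the probe sets called lower were kept. Sbf2, a myotubularin-related protein, had 6.13, 5.68, 6.08 and 6.20 in stress with linalool rats, against 6.94, 6.91, 6.94 and 7.10 in stress rats. Rat 2 was the lowest with linalool, and the stress rats were close together (change -0.95, SE 0.18, adjusted p = 0.0236). Ganc, a neutral alpha-glucosidase, had 7.12, 6.96, 7.20 and 7.36, against 8.03, 8.09, 8.59 and 7.53, where stress rat 4 came close to the linalool rats (change -0.90, SE 0.17, adjusted p = 0.0265). Epc2, an enhancer of polycomb homolog, changed by -0.73 (SE 0.15, adjusted p = 0.0422) and Slc31a2, a copper transporter, by -0.50 (SE 0.09, adjusted p = 0.0132). The other kept probe set of Ganc showed 0.16 (adjusted p = 0.541), and that of Epc2 showed 0.01 (adjusted p = 0.984). Tia1, an RNA-binding protein that nucleates stress granules, had 6.82, 6.81, 6.87 and 6.65 in stress with linalool rats, against 7.13, 7.24, 7.37 and 7.34 in stress rats. The ranges did not meet, and its change of -0.49 (SE 0.10, adjusted p = 0.0378) made it 1 of 48 measured splicing and RNA-binding factors to be called. Over all named genes 0.0485% were called lower. With the BioC block Slc31a2 and Tia1 were called (adjusted p = 0.0194 and 0.0412), and Sbf2, Ganc and Epc2 were not (adjusted p = 0.0516, 0.0617 and 0.0716).

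Called genes often had other probe sets that gave a different answer. Of the 121 called probe sets 97 had 1 gene symbol, naming 94 genes (0.912% of 10309), 87 higher and 7 lower. Of these 94, 68 had several kept probe sets, and for 53 of the 68 the brightest one was not called. All kept probe sets were called for 0 of the 68. Among probe sets that were not the brightest of their gene, 56 of 3619 were called (1.55%), against 15 of 2724 that were the brightest of several (0.551%) and 26 of 7585 that were the only one (0.343%). Of 4697 probe sets without a single gene symbol 24 were called (0.511%). For 51 genes called higher through another probe set, the difference by the brightest probe set had a median of -0.02 (-0.20 to 0.73, 23 positive), while the called ones had a median of 0.73. Those 94 genes are therefore described by probe set, and only the 41 with a called representing probe set are counted as genes that rose or fell. Of the 41, 15 also had other kept probe sets, so this count does not settle the disagreement. The other probe sets showed -0.09 for Kif3a, 0.06 for Pdia3, and 0.26 and 0.04 for Usp7. They showed 0.40 for Tmem33, 0.26 and 0.58 for Ddx6, and 0.21 and 0.32 for Setd5. None of these was called.

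Some of these cases, chosen after their values were seen, show the spread. For Rab14, a small GTPase of endosomal traffic, 1 probe set rose by 0.86 (adjusted p = 0.00431, the smallest of all), and the differences by the other 3 were 0.01, 0.00 and 0.00. For Gnas, the stimulatory G protein alpha subunit at an imprinted locus of several transcripts, 1 probe set rose by 1.37 (adjusted p = 0.0074), and the other 2 showed 0.02 and 0.16. Msi2, an RNA-binding Musashi protein, showed 1.37 (adjusted p = 0.0258) beside -0.05 and 0.47. Aqp4, the astrocyte water channel, showed 0.48 (adjusted p = 0.0444) beside -0.04 and 0.10, and the orphan receptor gene Nr2f2 showed 0.80 (adjusted p = 0.0347) beside -0.10. Pnma8b was an exception, with 0.71 (adjusted p = 0.0213) beside 0.73 (adjusted p = 0.0849). The case also ran the other way for Pals2, a scaffold protein, whose brightest probe set rose by 0.74 (adjusted p = 0.00846) while the other 4 ran from -0.18 to 0.03. Which transcript region each probe set covers was not used here.

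**Figure D3:**
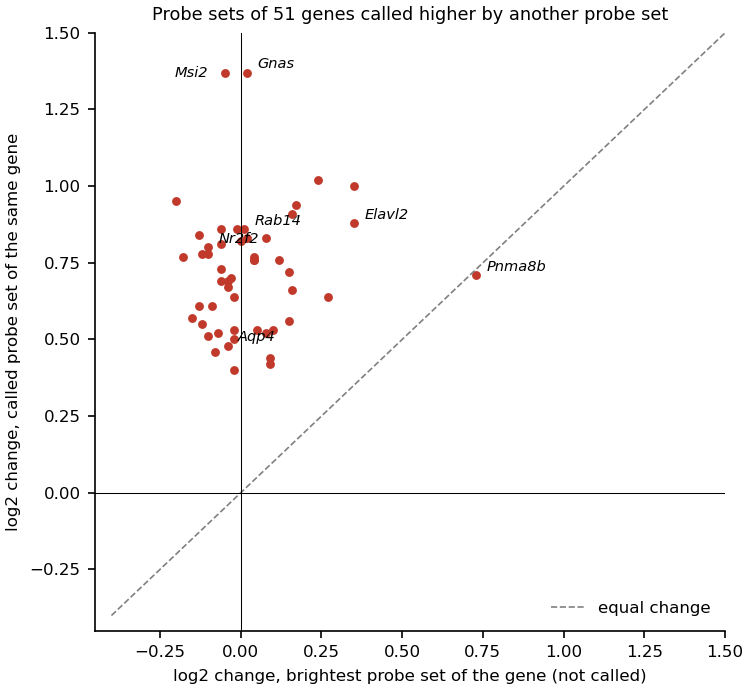
For 51 genes called higher through a probe set other than their brightest, the log2 change between stress with linalool and stress rats is shown for the brightest probe set (horizontal axis) and for the called one with the largest change (vertical axis). Each point is 1 gene and the dashed line marks equal change. Nearly all points lie above the line near 0 on the horizontal axis, and Pnma8b lies on it.

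Immediate early genes, which are switched on quickly in active neurons, were not called in this comparison. Fos, widely used as a mark of neuronal activity, had levels of 10.77, 10.53, 9.73 and 9.40 in stress with linalool rats, against 9.68, 9.31, 8.42 and 9.31 in stress rats. Rats 1 and 2 were well above all stress rats, rat 3 was just above the highest of them, rat 4 was not, and stress rat 3 was lowest. The change of 0.93 (SE 0.29) had an adjusted p of 0.167. Nr4a1, an orphan nuclear receptor of the same class, had 9.38, 9.13, 8.02 and 7.60, against 8.06, 7.78, 7.22 and 7.43 (0.91, SE 0.29, adjusted p = 0.19). Jun had 10.93, 10.79, 10.13 and 9.90, against 9.98, 9.96, 9.41 and 9.63 (0.69, SE 0.20, adjusted p = 0.131). In both genes the same 2 rats with linalool were the highest. Of 24 measured immediate early genes 0 were called and 6 had an unadjusted p under 0.05, with 17 changes positive and a median of 0.19.

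Heat shock genes varied in the same way between rats. Hspa1a encodes inducible heat shock protein 70, and because Hspa1b is almost identical in sequence the signals of both may be mixed. It had 12.83, 12.63, 11.75 and 11.06 in stress with linalool rats, against 11.79, 11.90, 8.59 and 10.79 in stress rats. Stress rat 3 was far below the other 7, and the ranges overlapped (difference 1.30, SE 0.54, adjusted p = 0.32). Without stress rat 3 the difference was 0.58. Bag3, a cochaperone of heat shock protein 70, had 10.47, 10.41, 9.85 and 9.35, against 9.49, 9.70, 8.93 and 9.30, with rats 1 and 2 again on top and stress rat 3 at the bottom (0.66, SE 0.20, adjusted p = 0.159). Ahsa1, which activates heat shock protein 90, was higher in every rat with linalool and did not pass (0.41, SE 0.10, adjusted p = 0.086). Of 33 measured heat shock and chaperone genes 0 were called and 10 had an unadjusted p under 0.05, with 26 changes positive and a median of 0.16.

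Glucocorticoid-responsive genes showed no call either. Sgk1, a kinase gene induced by glucocorticoids, had 11.28, 11.59, 11.57 and 11.40 in stress with linalool rats, against 11.58, 11.96, 11.90 and 11.79 in stress rats. Rat 2 of the first group just passed the lowest value of the second, so the ranges touched (change -0.35, SE 0.12, adjusted p = 0.21). The difference was -0.09 for Fkbp5, a cochaperone of the glucocorticoid receptor (SE 0.14, adjusted p = 0.834), and -0.05 for the clock gene Per1 (SE 0.16, adjusted p = 0.939). Cebpb, a transcription factor of inflammation and metabolism, had 8.28, 8.69, 7.55 and 7.28, against 7.35, 7.41, 6.39 and 7.41 (0.81, SE 0.27, adjusted p = 0.208). Of 35 measured genes 0 were called and 8 had an unadjusted p under 0.05, with 18 positive and a median of 0.05. Among 20 clock genes 0 were called (3 at an unadjusted p under 0.05), although Hlf (0.55, adjusted p = 0.122) and Nr1d1 (0.37, adjusted p = 0.264) were higher in all 4 rats with linalool.

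**Figure D4:**
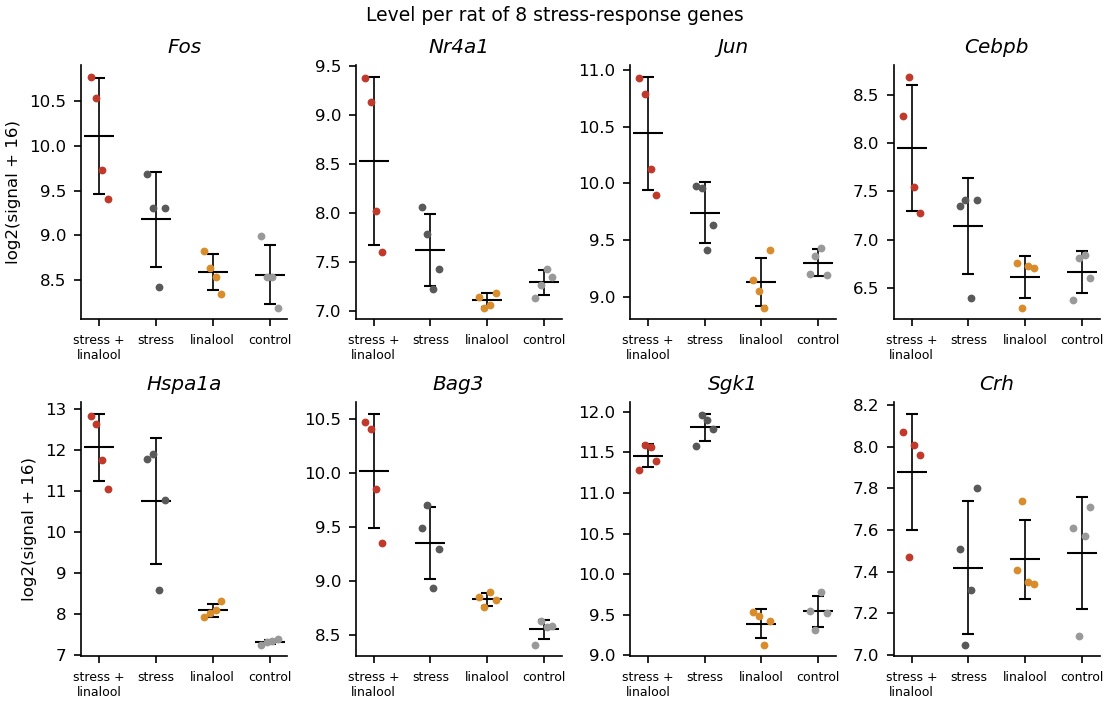
Levels of 8 stress-response genes in each rat, on the log2(normalized signal + 16) scale, in the stress with linalool, stress, linalool and control groups. Each point is 1 rat, the wide bar is the mean and the thin bars the SD over 4 rats. The ranges of stress with linalool and stress rats overlap in all 8 panels, and stress rat 3 is lowest of its group for Fos, Nr4a1, Jun, Cebpb, Hspa1a and Bag3.

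Of the listed genes, 30 of 44 neuropeptide genes and 23 of 52 monoamine, acetylcholine and histamine genes were measured after the signal filter. Of these 0 were called. Crh, the releasing hormone that starts the stress axis, had 8.07, 7.47, 8.01 and 7.96 in stress with linalool rats, against 7.51, 7.05, 7.31 and 7.80 in stress rats. Rat 2 fell among the stress rats while the other 3 were above them (change 0.46, SE 0.17, adjusted p = 0.27). The difference was 0.56 for Trh, the thyrotropin-releasing hormone (SE 0.17, adjusted p = 0.157), and -0.13 for Avp, vasopressin (SE 0.23, adjusted p = 0.869). Of 30 measured neuropeptide genes 0 were called and 4 had an unadjusted p under 0.05. Th, the first enzyme of catecholamine synthesis, had 9.75, 9.29, 9.65 and 8.72 in stress with linalool rats and ran from 9.82 to 10.56 in stress rats. All rats with linalool were below all rats without, yet the change of -0.77 (SE 0.24) had an adjusted p of 0.176. Ddc, a later enzyme of that pathway, had a difference of -0.54 (SE 0.15, adjusted p = 0.113). The largest difference of this list was -1.14 for the dopamine transporter gene Slc6a3 (SE 0.48, adjusted p = 0.332). Its stress with linalool rats all lay below its stress rats, and its SD in control rats was 1.19. Of 23 measured monoamine, acetylcholine and histamine genes 0 were called and 3 had an unadjusted p under 0.05, and 4 of the 23 changes were positive (median -0.08).

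Markers of cell types and of neighbouring tissue gave 0 calls by representing probe sets among all 13 marker lists. The median of the list's members in a rat ran from 11.22 to 11.30 in stress with linalool rats and from 11.03 to 11.24 in stress rats for 18 neuron markers, with a median change of -0.01. For 15 astrocyte markers it ran from 12.30 to 12.49 and from 12.33 to 12.45, and the median change was 0.02. Of 17 oligodendrocyte markers 1 had a positive and 16 a negative difference, with a median of -0.12 and 0 at an unadjusted p under 0.05, and the same list had a median of -0.20 between linalool and control rats. Complement genes of microglia were highest in stress with linalool rat 2, at 9.74 for C1qc, where the other 3 had 8.82, 8.44 and 8.34 and stress rats had 7.66 to 8.40 (0.72, SE 0.23, adjusted p = 0.187). Without stress with linalool rat 2, whose array had the high BioC signal, the difference for C1qc was 0.42. Of 16 measured microglia markers 9 had a positive and 7 a negative difference, with Cx3cr1 at -0.20 and P2ry12 at -0.05. Markers of the pituitary and of blood varied between rats. The 5 measured pituitary markers had rat medians of 7.04 to 9.90 in stress with linalool rats and 9.59 to 11.06 in stress rats, and the 2 measured blood markers 8.77 to 10.19 and 9.84 to 10.95. Tshb, a thyrotropin subunit of the pituitary named here after its value was seen, was at 8.35 ± 1.19 and 10.65 ± 0.73 (-2.30, SE 0.86, adjusted p = 0.266). By group mean Tshb had the middle level of the 5 pituitary markers, so their rat medians are not separate from it. The pituitary markers Lhb, Chgb, Tbx19 and Cga changed by -0.09, -0.11, -0.15 and -0.47. The part of these markers in the called changes was not tested.

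The same odour was also tested in rats without restraint, which shares no array with the comparison above. In linalool minus control 0 of 18625 probe sets were called (0%, limma, smallest adjusted p = 0.282). An unadjusted p under 0.05 was reached by 1831 (9.83%). With the BioC block 0 were called, and without the 3 high-BioC arrays, which leaves 2 linalool rats, 0 were called. The probe sets called higher among restrained rats had a median change of 0.14 there (-0.30 to 0.58), and 90 of 111 were positive, against a median of 0.00 and 9563 positive of all 18625. Those called lower had a median of -0.05 (-0.29 to 0.13), with 3 of 10 positive. Over all 18625 probe sets the changes correlated with r = 0.18 and rho = 0.19, a description across probe sets that share the normalization. In the linalool group, rats 2 and 4, with high BioC, deviated by 0.02 and 0.18 in the median of the probe sets called higher, and rats 1 and 3 by 0.10 and 0.08. Deviations were 0.30 to 0.42 in stress with linalool rats, -0.46 to -0.19 in stress rats and -0.19 to 0.14 in control rats.

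Whether the change with linalool differed between restrained and unrestrained rats was tested as an interaction. It gave 0 calls of 18625 (0%, limma), with 1489 at an unadjusted p under 0.05 (7.99%). With the BioC block 1 was called, and without the high-BioC arrays 0. For Bmpr2 the change was 1.03 under restraint and 0.03 without it, an interaction of 1.01 (SE 0.20, adjusted p = 0.294). For Gad2 the changes were 0.77 and 0.04 (interaction 0.73, adjusted p = 0.409), and for Gabra2 0.96 and 0.42 (interaction 0.54, adjusted p = 0.67). The smallest adjusted p, 0.0565, belonged to Inpp5b, an inositol polyphosphate phosphatase named here because of that value. It had 9.48, 9.50, 9.25 and 9.41 in stress with linalool rats and 8.96, 8.81, 8.91 and 8.67 in stress rats, against 9.09, 9.34, 9.24 and 9.29 in linalool rats and 9.55, 9.42, 9.54 and 9.63 in controls. The rats with linalool were above those without under restraint and below those without otherwise, with changes of 0.57 and -0.29. A difference between the effects with and without restraint was thus not shown for these genes at this number of arrays.

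The levels of the other groups place these changes. Gad2 averaged 9.76 ± 0.19 in stress with linalool rats, 8.99 ± 0.20 in stress rats, 9.37 ± 0.17 in linalool rats and 9.33 ± 0.25 in controls, so that the unrestrained groups lay between the restrained ones. Over the probe sets called higher, stress with linalool minus control had a median of 0.39 and stress minus control a median of -0.31, and these 2 values share arrays with the comparison that chose the probe sets. For the probe sets called lower the medians were -0.41 and 0.17.

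**Figure D5:**
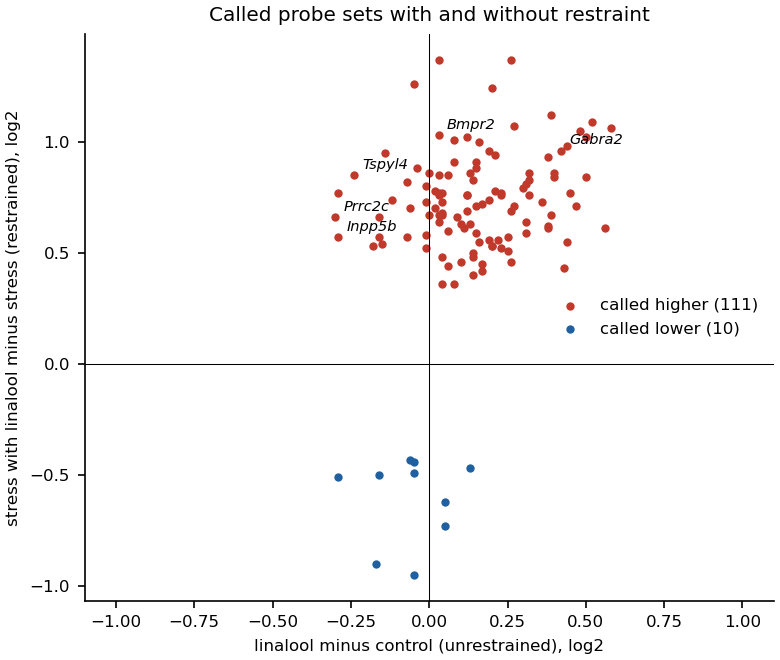
Log2 change with linalool in restrained rats (stress with linalool minus stress, vertical axis) against the change in unrestrained rats (linalool minus control, horizontal axis) for the 121 probe sets called in restrained rats, 111 higher in red and 10 lower in blue. Each point is 1 probe set, and the vertical values chose the points. Horizontal values run from -0.30 to 0.58 for the red points and from -0.29 to 0.13 for the blue.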

How the data were processed

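The authors deposited a table of linear signal intensity for 31099 probe sets on 16 Affymetrix rat arrays, 1 rat each. Per the submitters' processing notes they were made with MAS5 (no version or scaling target given). Because the level of these deposited intensities differed between arrays (2% trimmed means of 172.6 to 327.9), quantile normalization of the log2 values brought the 16 arrays to 1 distribution. The values were then put back on the linear scale, and log2(value + 16) was used throughout. The pseudocount of 16 makes changes of dim genes look smaller. Quantile normalization hides a change shared by most transcripts. The 57 control probe sets were left out, and probe sets with a mean at or above the 40th percentile were kept.

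For tests, 1 linear model of 4 group means was fitted to the 16 arrays with limma (version 3.58.1, under R 4.3.3) and moderated with eBayes (12 residual degrees of freedom, 3.97 prior). P-values are two-sided and adjusted by Benjamini-Hochberg over the kept probe sets. The code was tested on simulated data. The labels give each array a separate rat, and precision is limited by how many arrays there are.

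Gene symbols came from the platform's annotation. Of 31042 probe sets, 20826 had 1 symbol, 436 several and 9780 none. The brightest kept probe set represents a gene.

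Genes named are the 15 largest rises and 15 largest falls called (5 fell), up to 5 called members of each of 40 lists, genes with 2 or more called probe sets (up to 8), the 2 smallest p-values of each list with 10 or more measured members, and 11 genes always reported. Other genes are said in the text to be chosen by their values or are list members given as examples. The groups compared, the members and the lists were chosen with earlier results of these data known. Alternatives changed the normalization, pseudocount, filter, blocks, covariates, weights and arrays. Promoter sequences are from RefSeq (GRCr8).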

Additional observations from a re-analysis of the deposited data

Results flagged for a closer look

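Each of the 89 named genes was examined in the stress with linalool and the stress group for 1 rat far from the other 3, by the gap to the nearest rat as a share of the group's range. This marked 14 of 178 groups, where chance marks about 5%. In stress with linalool rats, Cutal was high in rat 1 (7.57, the others 6.98 to 7.07, share 0.851), and Slc31a2 was low in rat 2 (6.24, the others 6.41 to 6.43, share 0.862). Hlf was high in rat 4 (9.87, share 0.854), Psme1, a proteasome activator subunit, in rat 1 (10.49, share 0.942), and the glutamate transporter gene Slc1a3 in rat 1 (12.49, share 0.873). The neurofilament gene Nefh was low in rat 2 (10.34, share 0.881).

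In stress rats, Ddx6 was high in rat 1 (10.06, the others 9.46 to 9.54, share 0.873). Rat 3 was low for Tmem33 (8.09, share 0.878), Cplx2 (7.04, share 0.864) and Cebpb (6.39, the others 7.35 to 7.41, share 0.941). The same rat was high for the astrocyte gene Ntsr2 (11.85, share 0.928) and the endothelial gene Sox18 (7.80, share 0.830). The ribosomal protein genes Rps29 and Rpl39 were low in rat 2 (13.32, share 0.871) and rat 4 (7.14, share 0.902).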

How the results depend on the processing

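All 111 probe sets called higher stayed positive and all 10 called lower stayed negative in every setting in which they were kept. At a 60th percentile filter 74 and 2 were kept. Every setting reused arrays that chose these probe sets, so the kept signs are no separate test. The number called moved. The count of 121 (111 higher, 10 lower) was 32 (31, 1) on values as deposited, 46 (42, 4) without the filter, 51 (47, 4) with the BioC block, 0 (0, 0) on the 13 BioC-low arrays, 386 (332, 54) with the actin ratio as a covariate and 484 (344, 140) with array weights. The calls were 91.7% higher in the main setting, and 71.1% with array weights. With an intensity trend 16 were called lower. The replicate numbers did not pair the rats (correlations of same-numbered rats 0.09, 0.13, -0.04 and -0.02), and the replicate block gave 120. Leaving out 1 array gave 29 to 233 calls, 28 to 206 higher and 1 to 27 lower. The count was 233 without control rat 1, 182 without stress rat 1, 33, 38 and 44 without stress rats 2, 3 and 4, and 59, 29, 42 and 67 without stress with linalool rats 1 to 4. Of the alternatives chosen after seeing the data, leaving out control rats 1 and 2 gave 250 (219, 31), and 1 probe set per gene gave 23 (20, 3). The interaction had 1 call on values as deposited, with a pseudocount of 64, a 60th percentile filter, the BioC block, the intensity trend, without stress with linalool rat 3 and without control rats 1 and 2, and 14 with the actin covariate. Linalool minus control had 1 with the actin covariate and 2 without control rats 1 and 2. Small changes turned sign for Per1 (0.01 as deposited, and -0.15 to 0.07 with 1 array left out), Avp (0.02 on BioC-low arrays, and -0.21 to 0.02 with 1 array left out) and Gad1 (0.07 as deposited, and -0.08 to 0.01 with 1 array left out). The causes were not tested.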

Other observations

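The remaining lists describe further parts of the tissue, again by the difference stress with linalool minus stress. Respiratory chain subunits had 0 calls among 52 measured genes (5 at an unadjusted p under 0.05), 35 positive and a median of 0.04, with Ndufb10 of complex I at 0.20 and Sdhc of complex II at -0.21. Cytosolic ribosomal proteins had 0 calls among 39 (0 at an unadjusted p under 0.05), 30 positive and a median of 0.02. Proteasome subunits had 0 among 38 (2), translation factors 0 among 42 (3), and kinase signalling genes 0 among 40 (4), with medians of 0.01, -0.02 and -0.04. In the last list the cyclic AMP repressor gene Crem, at 0.49 (adjusted p = 0.187), was higher in all 4 rats with linalool, and Prkacb, a catalytic subunit of protein kinase A, at -0.20 (adjusted p = 0.263), was lower in all 4. Potassium channels had 0 calls among 32 (1), calcium and sodium channels 0 among 23 (4), and postsynaptic scaffold and adhesion genes 0 among 34 (3), with medians of -0.01, -0.01 and 0.01. Notch and Wnt genes had 0 among 31 (4) and a median of -0.05, with the secreted Wnt inhibitor gene Sfrp2 at -0.51 (adjusted p = 0.121). Inflammation genes had 0 among 18 (3) and a median of -0.02, and stress axis hormones and receptors 0 among 6 (1) and a median of 0.01.

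Of the other marker lists, 16 microglia markers had 4 at an unadjusted p under 0.05 and a median of 0.08, and 16 endothelial markers had 2 and a median of -0.13. In the endothelial list Sox18 was 6.31, 6.24, 7.08 and 7.07 in stress with linalool rats and 7.04, 7.08, 7.80 and 7.17 in stress rats, so that rats 1 and 2 were low where Fos and Hspa1a were high. Its companion factor gene Sox17 showed the same order of those rats (7.16, 6.76, 7.76 and 7.74 with linalool). Pericyte, smooth muscle and fibroblast markers had 1 of 12 at an unadjusted p under 0.05 and a median of -0.15, oligodendrocyte precursor markers 0 of 9 and -0.05, ependyma and tanycyte markers 1 of 8 and 0.04, and choroid plexus markers 0 of 6 and -0.07. Markers of thalamus, cortex, striatum and hippocampus had 1 of 13 and a median of 0.13, and hypothalamic transcription factors and neuron types 2 of 13 and 0.03.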
